A study of Mus musculus with 32 samples.

Results

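Dectin-1 and the related C-type lectins of myeloid cells were followed as 10 genes: *Clec7a* (Dectin-1), *Clec4n* (Dectin-2), *Clec4d* (MCL), *Clec4e* (Mincle), *Clec5a* (MDL-1), *Clec4a2* (DCIR1), *Clec12a* (MICL), *Clec4a1* (DCIR4), *Clec4a3* (DCIR3) and *Card9*, the adaptor that several of these receptors use. The genes were chosen by symbol, and each was matched through its Ensembl identifier to the annotation; all 10 were found in each of the 3 count tables, among 74021 identifiers in the sorted-cell and cord tables and 74016 in the stage table. In GRCm39 with GENCODE vM39, 9 of the genes lie on chromosome 6, where *Clec4a3* (122929380 to 122948807), *Clec4a2* (123083387 to 123120958), *Clec4n* (123206802 to 123223980), *Clec4d* (123239070 to 123252230) and *Clec4e* (123258748 to 123266829, minus strand) are neighbours and *Clec12a* (129319654 to 129342266) lies near *Clec7a* (129438554 to 129449742, minus strand). *Card9* lies on chromosome 2 (26242188 to 26250930, minus strand).

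C-type lectin receptors bind sugars and other patterns on microbes and on damaged cells. *Clec7a* recognises beta-glucan and signals through a short tyrosine motif of its own to the kinase Syk, whereas *Clec4n*, *Clec4d* and *Clec4e* pair with the Fc receptor gamma chain (*Fcer1g*) and *Clec5a* with DAP12 (*Tyrobp*). Syk then acts through CARD9, BCL10 and MALT1 on NF-kB. *Clec4a2* and *Clec12a* carry inhibitory motifs that recruit phosphatases, and *Clec4a1* and *Clec4a3* are relatives of *Clec4a2* without that motif. In brain and spinal cord, *Clec7a* is known as a gene that microglia take up in disease, and several of the other members are better known from neutrophils and monocytes.

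The libraries came from 3 experiments in mice that carry the SOD1G93A transgene, a mutant human superoxide dismutase 1 used as a model of ALS. CD11b+/CD45int cells were sorted from lumbar spinal cord: 4 libraries came from WT mice without the transgene (age not given in the sources used here), 5 from LAG-3-low and 5 from LAG-3-high microglia of SOD1G93A mice at P140, and 3 came from each LAG-3 genotype (LAG-3+/+ or LAG-3-/-, all SOD1G93A) at each of P120 and P140. Whole lumbar cord at P140 gave 3 libraries of each LAG-3 genotype, the LAG-3-/- mice carrying the Lag3tm1Doi null allele in every cell and all cord and stage mice carrying SOD1G93A. The labels call these libraries separate samples and do not say which shared an animal, so p-values measure the spread between libraries. Levels are given in CPM, estimated counts scaled to a common library size with TMM factors, and differences as log2 fold changes from edgeR's quasi-likelihood model, with p-values adjusted by Benjamini and Hochberg's method across the whole table. A gene was called at an adjusted p below 0.1, and in the sorts and the cord its log2 fold change also had to exceed 1 in size.

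Library totals ran from 9403475 to 49512632 counts. *Lag3* averaged 0.292 CPM in P120 and 0.173 CPM in P140 LAG-3-/- microglia against 59.3 and 26.1 CPM in LAG-3+/+ microglia, and 5.61 against 59.8 CPM in cord. All 9 microglia markers that were matched were detected in every microglia group, with sums of 16458 to 43755 CPM. Neutrophil markers differed between the libraries. Their sum over 14 genes, leaving out *Csf3r*, which microglia also express, was 6032 to 70511 CPM in WT, 23039 to 67228 CPM in LAG-3-low and 3.55 to 9.67 CPM in LAG-3-high libraries. In the stage experiment it was 1765 to 2614 CPM in P120 LAG-3+/+ and 2.81 to 6.58 CPM in P120 LAG-3-/- libraries, and at P140 it ranged from 3.92 to 3493 CPM in LAG-3+/+ and from 4.02 to 4691 CPM in LAG-3-/- libraries. These values are set beside the results below because 8 of the 10 members are also known from neutrophils. The part of neutrophil RNA in any difference was not tested.

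Promoter sequence is shown for *Clec7a* and *Clec4e*, one called higher and one called lower in the LAG-3-high fraction against the LAG-3-low one. Each line gives the 250 bases before the RefSeq start on the gene's own strand, which is the minus strand of GRCm38.p6 for both (chr6:129472780-129473029 and chr6:123289872-123290121). Capitals mark GAGGAA or its reverse complement, the core bound by PU.1, the transcription factor of myeloid cells.
Clec7a: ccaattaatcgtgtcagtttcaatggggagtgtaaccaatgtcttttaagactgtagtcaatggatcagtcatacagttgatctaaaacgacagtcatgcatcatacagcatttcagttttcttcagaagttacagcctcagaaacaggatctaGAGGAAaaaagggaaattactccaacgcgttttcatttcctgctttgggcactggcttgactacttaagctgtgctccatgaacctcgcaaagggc
Clec4e: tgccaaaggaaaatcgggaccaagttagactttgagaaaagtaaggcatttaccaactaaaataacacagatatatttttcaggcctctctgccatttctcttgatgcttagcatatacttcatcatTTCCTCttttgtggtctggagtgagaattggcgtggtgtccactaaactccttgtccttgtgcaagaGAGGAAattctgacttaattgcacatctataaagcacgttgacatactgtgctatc
GAGGAA was found on either strand in 6 of the 9 members with a promoter in the table, in *Clec7a*, *Clec4e*, *Clec4d*, *Clec5a*, *Clec4a1* and *Clec12a*, against 23.3% of 32851 promoters. It began 96 bases before the start in *Clec7a* and at 123 and 56 bases before it in *Clec4e*, so it was present in a receptor that was higher and in one that was lower. TGANTCA, the AP-1 motif, was found in *Clec12a* alone (6.75% of all promoters), and CACGTG, the motif of the MiT/TFE factors, in none of the 9 (6.02%). No motif overlapped another. The start used for *Clec12a* lies inside several of its GENCODE transcripts. Those used for *Clec4a2* and *Clec4a1* also lie well inside the GENCODE extent of the gene, not at its outer start. A match describes these letters and is not a measured binding site.

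The first comparison asks how microglia with high surface LAG-3 differ in these receptors from those with low LAG-3 and from WT cells. *Clec7a* was highest in LAG-3-high cells, while *Clec4a2*, *Clec12a* and *Clec4e* were lowest there and *Clec5a* was at like levels in the 3 groups. In LAG-3-high against LAG-3-low, 4 of 10 members were called, 1 higher and 3 lower, against 3.49% of all 16508 genes tested (0.818% higher and 2.67% lower). The median log2 fold change of the 10 members was -1.41, and that of all genes was -0.02.

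*Clec7a* was at 10.7, 39.3, 78.9 and 54.9 CPM in the 4 WT libraries, at 635, 540, 526, 432 and 518 CPM in LAG-3-low and at 1525, 1425, 1478, 1552 and 1561 CPM in LAG-3-high libraries. The 3 groups were fully separate. The LAG-3-high libraries averaged 1508 ± 56.6 CPM (SD, n = 5) and the WT libraries 46.0 ± 28.6 CPM (SD, n = 4), the wider spread for its mean. The fitted log2 fold change was 1.51 ± 0.35 (SE) for LAG-3-high against LAG-3-low (adjusted p = 0.0288, edgeR), and this call was lost without TMM scaling (1.13, adjusted p = 0.117). Against WT it was 3.53 ± 0.41 in LAG-3-low (adjusted p = 0.0002) and 5.04 ± 0.45 in LAG-3-high cells. Border macrophage markers summed to 78.3 to 154 CPM in LAG-3-high, 27.1 to 56.3 CPM in LAG-3-low and 0 to 520 CPM in WT libraries, with *Lyve1* and *Cd163* at 0 in LAG-3-high, and their part in the difference between the fractions was not tested.

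**Figure D1:**
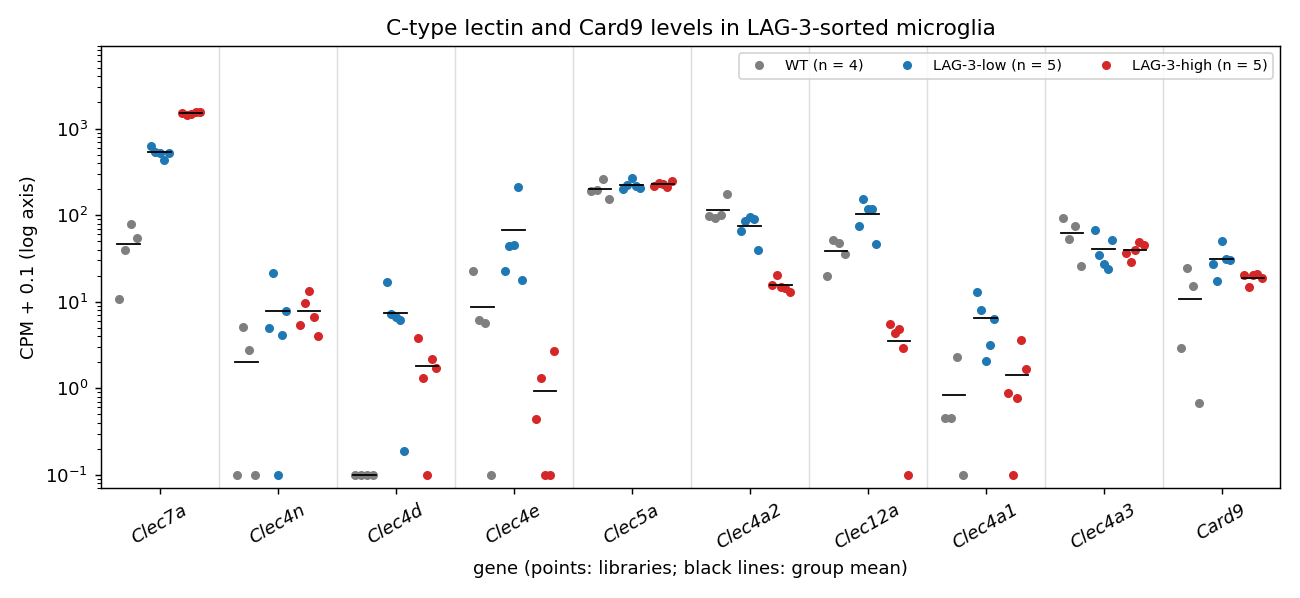
CPM plus 0.1 on a log axis for each of the 10 genes in WT (grey, n = 4), LAG-3-low (blue, n = 5) and LAG-3-high (red, n = 5) microglia. Points are libraries and black lines are group means. *Clec7a* stands highest in LAG-3-high (1425 to 1561 CPM), *Clec12a* and *Clec4e* stand lowest there (0 to 5.46 and 0 to 2.61 CPM), and *Clec5a* is at 154 to 266 CPM throughout.

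Among the receptors that pair with the Fc receptor gamma chain, *Clec4e* alone was called lower in LAG-3-high cells. *Clec4e* read 22.6, 6.01, 5.65 and 0 CPM in WT, 22.7, 43.4, 44.7, 209.7 and 17.7 CPM in LAG-3-low and 0.338, 1.2, 0, 0 and 2.61 CPM in LAG-3-high libraries. Every LAG-3-low library was above every LAG-3-high library, and one LAG-3-low library stood far above the other 4. The fitted log2 difference was -6.35 ± 1.53 for LAG-3-high against LAG-3-low (adjusted p = 0.0368) and -3.37 ± 1.38 against WT (adjusted p = 0.0960). The first call was lost without LAG-3-low replicate 4 (adjusted p = 0.128) or LAG-3-high replicate 1 (adjusted p = 0.111), without the filter and with the replicate block. The second was also lost without the filter, with the replicate block, with only the 2 groups and in 5 of 9 fits that left out a replicate (adjusted p up to 0.270).

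*Clec4d* had no count in any of the 4 WT libraries. It read 16.9, 7.03, 6.47, 6.10 and 0.0872 CPM in LAG-3-low and 3.66, 1.2, 0, 2.06 and 1.62 CPM in LAG-3-high libraries. Against a floor of 3 counts in each WT library (0.194 CPM on average), the mean was at least 37.8-fold higher in LAG-3-low (7.32 CPM) and at least 8.83-fold higher in LAG-3-high cells (1.71 CPM), and both differences were called (adjusted p = 0.0095 and 0.0174). Between the fractions no difference was called (-2.09, 95% interval -4.78 to 0.59, adjusted p = 0.590). *Clec4n* read 0, 4.97, 2.65 and 0 CPM in WT, 4.87, 21.4, 0, 4.07 and 7.80 CPM in LAG-3-low and 5.30, 9.61, 13.1, 6.60 and 3.88 CPM in LAG-3-high libraries. Its groups overlapped, and the interval between high and low ran from -2.89 to 2.92.

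*Clec5a*, the DAP12-coupled receptor, was measured with more precision than the Clec4 receptors above. It read 188, 193, 258 and 154 CPM in WT, 203, 225, 266, 216 and 204 CPM in LAG-3-low and 218, 235, 229, 214 and 251 CPM in LAG-3-high libraries. The groups overlapped, and the difference between the high and low fractions was 0.04 with a 95% interval of -0.30 to 0.38, its sign depending on the scaling. Differences of *Clec5a* as large as that of *Clec7a* lie outside this interval.

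The receptors with inhibitory motifs were lower in LAG-3-high cells. *Clec4a2* read 96.6, 92.3, 100.1 and 173.8 CPM in WT, 66.0, 85.7, 95, 89.6 and 39.3 CPM in LAG-3-low and 15.5, 20.1, 14.8, 14.3 and 12.8 CPM in LAG-3-high libraries, so that every LAG-3-high library lay below all others. Its log2 fold change was -2.28 ± 0.29 against LAG-3-low (adjusted p = 0.0005) and -2.90 ± 0.30 against WT. *Clec4a2* shares 4.82% of its 31-base words with *Clec4a4* and 4.76% with *Clec4b1*, where counts could be split between genes. *Clec12a* read 19.9, 51.0, 47.7 and 35.1 CPM in WT, 73.9, 153.5, 118.5, 117.1 and 45.9 CPM in LAG-3-low and 5.46, 4.2, 4.74, 2.84 and 0 CPM in LAG-3-high libraries. LAG-3-high libraries again lay apart from both other groups, and the log2 fold change was -4.88 ± 0.79 against LAG-3-low (adjusted p = 0.0037) and -3.47 ± 0.76 against WT (adjusted p = 0.0061). WT and LAG-3-low overlapped (1.41, 95% interval -0.17 to 2.98).

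The remaining members were not called by edgeR in the sorts with all libraries in the fit. *Clec4a3* read 25.5 to 93.3 CPM in WT (median 64), 23.6 to 68.0 CPM in LAG-3-low (median 34.6) and 28.4 to 49.4 CPM in LAG-3-high libraries (median 39), and the difference between high and low was -0.05 (95% interval -0.84 to 0.75). *Clec4a1* was at most 12.8 CPM in any sorted library and was not called by edgeR in any of the 3 comparisons. *Card9* read 0.571 to 24.2 CPM in WT, 17.3 to 49.99 CPM in LAG-3-low and 14.8 to 20.9 CPM in LAG-3-high libraries, with a difference of -0.72 between high and low (95% interval -2.16 to 0.73). Other fits did call these genes: against WT, DESeq2 called both *Clec4a1* and *Card9* higher in the low fraction, *Clec4a1* was called lower in the high than the low fraction with only the 2 groups, and *Clec4a3* was called lower in both fractions than in WT with the length and GC correction and without WT replicates 2 and 4. An antisense gene, Gm13562, overlaps 247 exonic bases of *Card9*, and the kit used for microglia does not mark strand, so their reads cannot be told apart there.

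Against WT, LAG-3-low had 2 of 10 members called, *Clec7a* and *Clec4d*, both higher, beside 21.9% of all genes. LAG-3-high had 5 of 10 called, *Clec7a* and *Clec4d* higher and *Clec4a2*, *Clec12a* and *Clec4e* lower, beside 27.0% of all genes. The 3 sorted comparisons share their libraries. The first share lies near its background and the second above it.

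Neutrophil RNA moved with the 3 members that were lower in LAG-3-high cells. The sum of the 14 neutrophil genes was 3.55 to 9.67 CPM in LAG-3-high libraries, where *Mmp9*, *Ly6g* and *Elane* were at 0, and at least 6032 CPM in WT and LAG-3-low libraries; monocyte markers summed to 393 to 990 CPM in LAG-3-high, 1720 to 5186 CPM in LAG-3-low and 51.3 to 2726 CPM in WT libraries. *Clec4e* was at 0 in WT replicate 4, the library with the most neutrophil RNA of all (70511 CPM), and at 22.6 CPM in WT replicate 1, which had the least among WT (6032 CPM). *Clec4a2* was at 96.6 and 100.1 CPM in WT replicates 1 and 3, with 6032 and 9450 CPM of neutrophil RNA, and at its highest, 173.8 CPM, in WT replicate 4. Within LAG-3-low the levels went with neutrophil RNA. From the library with the least (23039, 28614, 49956, 52794 and 67228 CPM) to that with the most, *Clec4a2* read 39.3, 66.0, 89.6, 85.7 and 95 CPM, *Clec12a* 45.9, 73.9, 117.1, 153.5 and 118.5 CPM and *Clec4e* 17.7, 22.7, 209.7, 43.4 and 44.7 CPM. The 2 libraries with the least neutrophil RNA were thus the lowest of the 5 for each of the 3 genes. *Clec4e*, *Clec12a* and *Clec4a2* stayed called lower in LAG-3-high against WT with WT replicates 2 and 4, the libraries with the most neutrophil RNA, left out, a choice made after the data were seen (log2 fold changes -4.07, -3.27 and -2.64). WT replicates 1 and 3, which stayed in that fit, held 6032 and 9450 CPM of neutrophil RNA, against at most 9.67 CPM in LAG-3-high libraries. That fit therefore cannot tell the part of neutrophil RNA. How far neutrophil RNA sets these 3 genes in WT and LAG-3-low was not tested.

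**Figure D2:**
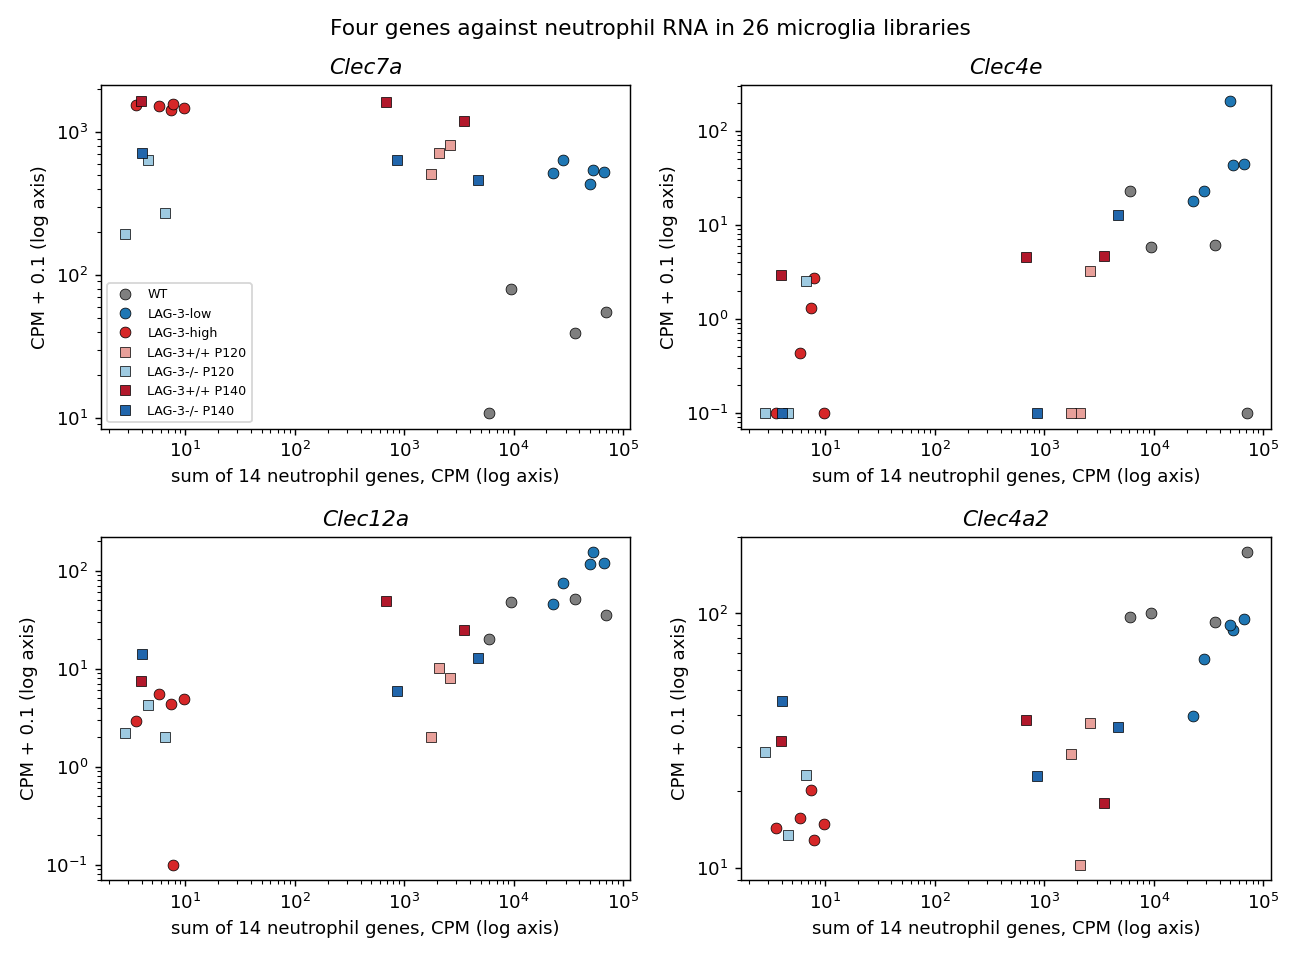
CPM plus 0.1 against the summed CPM of 14 neutrophil genes in 26 microglia libraries, both on log axes, for *Clec7a*, *Clec4e*, *Clec12a* and *Clec4a2*; circles are the LAG-3 sorts and squares the stage experiment, which were normalized separately. *Clec7a* is at 1425 to 1561 CPM in the LAG-3-high libraries, which have at most 9.67 CPM of neutrophil RNA, and at 10.7 to 78.9 CPM in the WT libraries, which have at least 6032 CPM.

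Of the other genes of the pathway, 1 of 25 signalling partners tested was called between the high and low fractions, beside 3.49% of all genes. This was *Vav3*, an exchange factor, listed at 1.84 to 23.7 CPM in LAG-3-low and at 0 in all LAG-3-high libraries. *Syk*, chosen after its values were seen, differed by -0.79 ± 0.20 (adjusted p = 0.0491), under the minimum fold. Against WT, *Syk* was higher in LAG-3-low (1.13 ± 0.22, adjusted p = 0.0041), and *Nfkb1*, an NF-kB subunit, was lower in LAG-3-low (-1.79 ± 0.26) and in LAG-3-high (-1.62 ± 0.26). In all, 4 partners were higher and 2 lower in LAG-3-low against WT, and 1 was higher (*Src*, 2.95 ± 0.90) and 2 lower in LAG-3-high against WT. None of 14 CARD9 pathway outputs tested was called between the high and low fractions. None had an unadjusted p below 0.05 (edgeR), against 1988 of all 16508 genes. Against WT, 6 of 14 outputs were higher in each fraction, among them the immediate early genes *Egr1* (4.37 ± 1.17 in LAG-3-low and 6.16 ± 1.28 in LAG-3-high) and *Egr2* (4.07 ± 1.2 and 5.47 ± 1.28), while 1 was lower in LAG-3-low and 2 in LAG-3-high, with *Il6* at -6.31 ± 1.81. The shares of all genes in these comparisons are those given above for the partners. Of 18 other C-type lectins tested, *Colec12*, a scavenger receptor, was higher in the high than the low fraction (242 against 80.2 CPM, 1.59 ± 0.42, adjusted p = 0.0551) and in both fractions than in WT. *Ly75* (DEC-205), listed at 36.5 to 99.9 CPM in LAG-3-low, was at 0 in all LAG-3-high libraries and was called lower. In the stage groups, *Vav3* averaged 0 to 0.297 CPM and *Ly75* 0.384 to 2.57 CPM. Neutrophil RNA was 23039 to 67228 CPM in LAG-3-low and at most 9.67 CPM in LAG-3-high libraries. Its part in the *Vav3*, *Syk* and *Ly75* differences was not tested. *Cd72*, an inhibitory receptor, was higher in the LAG-3-high fraction against WT (3.21 ± 0.67). *Cd69*, an activation antigen, was at 0 in all WT libraries and averaged 12.4 CPM in LAG-3-low and 10.03 CPM in LAG-3-high, and *Klrb1c* was likewise at 0 in WT and averaged 1.98 CPM in LAG-3-low, both called higher there.

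Per kilobase of mean transcript length, *Clec7a* stood first in LAG-3-high cells at 1245 CPM per kb, above *Clec5a* at 56.9 and *Clec4a3* at 15.6. The same gene led in LAG-3-low at 438 CPM per kb, followed by *Clec12a* (59.9) and *Clec5a* (55.2), whose ranges overlapped. In WT cells the leaders were *Clec4a2* (60.2 CPM per kb), *Clec5a* (49.2) and *Clec7a* (38.0), and the ranges of these 3 over libraries overlapped. In the 4 stage groups and in LAG-3+/+ cord, *Clec7a* was first and *Clec5a* second. In LAG-3-/- cord *Clec7a* was first, with *Card9* (2.12) and *Clec5a* (1.48) next and their ranges overlapping.

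The genes whose profile lay closest to that of *Clec7a* were ranked by the root mean square difference of centred log2 CPM over 14 sorted and 12 stage libraries, among 8355 genes with a mean of at least 10 CPM in both. *Lilrb4a* was first (0.63 in the sorts and 0.70 in the stage libraries), followed by *Pdcd1* (0.79 and 0.35), *Pld3* (0.84 and 0.38), *Gm49339* (0.89 and 0.43), *Siglecf* (0.89 and 0.66) and *Gm53778* (0.94 and 0.86). *Lilrb4a* and *Pdcd1*, which encodes PD-1, are inhibitory receptors. For *Clec4e* no gene came close: the nearest were *Ifitm2* (2.33 and 2.83), *Zfp53* (2.74 and 2.86), *S100a11* (2.68 and 2.90), the member *Clec12a* (2.93 and 2.80), *Msra* (2.73 and 2.93) and *Tgds* (2.94 and 2.87). These are descriptions over libraries that share groups.

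The stage experiment asks how the receptors change from P120 to P140 with and without LAG-3. In LAG-3+/+ microglia, *Clec7a*, *Clec5a*, *Clec4a3* and *Clec12a* were higher at P140, so that 4 of 10 members were called, all higher, beside 27.4% of 18669 genes (11.9% higher and 15.5% lower). In LAG-3-/- microglia 0 of 10 members were called and 0% of all genes. There 2 members, *Clec5a* and *Clec12a*, had an unadjusted p below 0.05 (edgeR), as had 1658 of all 18669 genes. DESeq2 also called 0 members and 449 genes in all. The median log2 fold change of all genes was -0.22 in LAG-3+/+ microglia, and that of the members was 1.06. The libraries also differed in complexity: 18896 to 20489 genes were detected in P140 LAG-3+/+ libraries, with TMM factors of 0.734 to 0.855, against 24136 to 24942 genes and factors of 1.06 to 1.16 in P120 LAG-3+/+ libraries. P140 LAG-3-/- replicate 1 lay with the former (20260 genes, 0.848), while replicates 2 and 3 had 23896 and 23459 genes (0.980 and 1.12). The part of this in the stage and genotype changes was not tested, and values without P140 LAG-3-/- replicate 1 are given for the members where they differ.

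*Clec7a* read 709, 809 and 511 CPM in LAG-3+/+ and 269, 637 and 192 CPM in LAG-3-/- microglia at P120. At P140 it read 1195, 1627 and 1662 CPM in LAG-3+/+ and 709, 638 and 462 CPM in LAG-3-/- microglia. Every P140 LAG-3+/+ library was above all other stage libraries, while the 2 genotypes overlapped at P120. Border macrophage markers moved the same way, at 110.8 to 142.3 CPM in P140 LAG-3+/+, 31.3 to 50.02 CPM in P140 LAG-3-/-, 2.38 to 18.1 CPM in P120 LAG-3+/+ and 0.512 to 61.5 CPM in P120 LAG-3-/- libraries, with *Cd163* at 0 in both P140 groups. B cell markers, of which *Cd79a* was at 0 in all groups but P140 LAG-3-/-, summed to 514 to 563 CPM in P140 LAG-3+/+ and 229 to 477 CPM in the other libraries. Their part in the *Clec7a* levels was not tested. The rise in LAG-3+/+ was 1.14 ± 0.39 (adjusted p = 0.0608), against 0.72 ± 0.38 in LAG-3-/- (95% interval -0.12 to 1.56, adjusted p = 0.643). The difference between the 2 changes was -0.42 ± 0.54 (adjusted p = 0.791), so a genotype difference in the rise of *Clec7a* was not shown. The call in LAG-3+/+ was lost without P120 LAG-3+/+ replicate 1, 2 or 3, P140 LAG-3+/+ replicate 2 or 3 (adjusted p up to 0.190) and without TMM scaling (0.65, adjusted p = 0.186).

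Between genotypes, *Clec7a* was lower in LAG-3-/- at P140 by a log2 fold change of -1.31 ± 0.39 (adjusted p = 0.0795) and differed at P120 by -0.89 ± 0.38 (adjusted p = 1). At P140 2 of 10 members were called, both lower, beside 10.2% of all genes (7.22% higher and 3% lower). At P120 none was called by edgeR, beside 0.0107% of all genes, and DESeq2 called none. There 1 member had an unadjusted p below 0.05 (edgeR), as had 551 of all 18669 genes. The P140 call of *Clec7a* was lost without LAG-3+/+ replicate 2 or 3, LAG-3-/- replicate 2 or 3, with only the 2 groups in the fit (adjusted p = 0.207) or with the length and GC correction (adjusted p = 0.104). With P140 LAG-3+/+ replicate 1 and LAG-3-/- replicate 3 left out, the P140 libraries with the most neutrophil RNA, it was -1.28 (adjusted p = 0.197), and without LAG-3-/- replicate 1 it was -1.44 (adjusted p = 0.0629). Per 1000 CPM of summed microglia markers, *Clec7a* was at 19.8 ± 3.29 (SD, n = 3) in LAG-3-/- and 37.9 ± 4.61 (SD, n = 3) in LAG-3+/+ at P140, with no overlap. Of the 9 markers tested, 5 had an unadjusted p below 0.05 between these genotypes (edgeR), as had 4495 of all 18669 genes. Of the 9, 2 were called higher in LAG-3-/- and 0 lower, so the ratio rests on markers that differed as well.

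**Figure D3:**
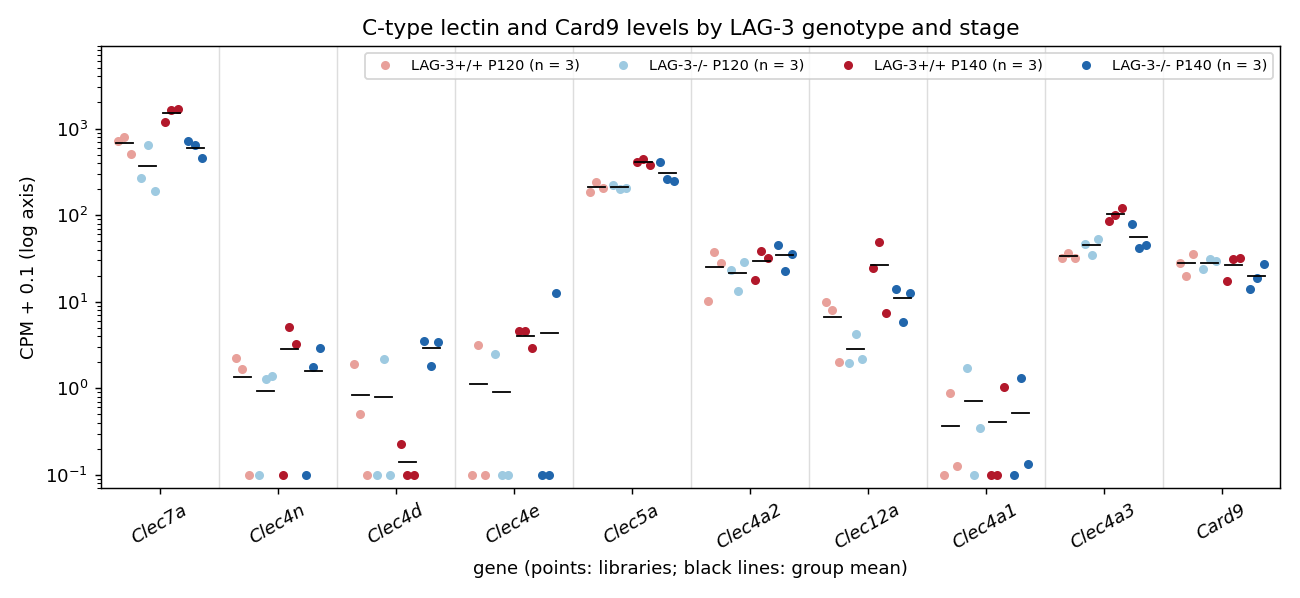
CPM plus 0.1 on a log axis for the 10 genes in LAG-3+/+ (reds) and LAG-3-/- (blues) microglia at P120 (pale) and P140 (dark), n = 3 per group, with group means as black lines. *Clec7a*, *Clec5a* and *Clec4a3* are highest on average in P140 LAG-3+/+ (1495, 412 and 102 CPM).

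*Clec5a* read 183, 244 and 205 CPM in LAG-3+/+ and 223, 198 and 206 CPM in LAG-3-/- microglia at P120, and 409, 448 and 378 CPM in LAG-3+/+ and 415, 259 and 247 CPM in LAG-3-/- microglia at P140. All 6 P140 libraries were above all 6 at P120. The rise was 0.97 ± 0.21 in LAG-3+/+ (adjusted p = 0.0118) and 0.55 ± 0.21 in LAG-3-/- (adjusted p = 0.511), and at P140 the genotypes differed by -0.42 (95% interval -0.88 to 0.04). One LAG-3-/- library, replicate 1, was within the LAG-3+/+ range, and without it the genotype difference was called (-0.70, adjusted p = 0.0173).

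*Clec4a3* read 32.1, 36.5 and 31.7 CPM in LAG-3+/+ and 46.1, 34.2 and 53.6 CPM in LAG-3-/- at P120, and 84.9, 99.98 and 121.7 CPM in LAG-3+/+ and 78.8, 41.9 and 44.5 CPM in LAG-3-/- at P140. P140 LAG-3+/+ libraries were above all others. The rise was 1.61 ± 0.29 in LAG-3+/+ (adjusted p = 0.0064), which stayed called without each replicate in turn, against 0.30 ± 0.28 in LAG-3-/-. The difference between the 2 changes was -1.31 ± 0.40 (adjusted p = 0.224; 0.171% of all genes were called, 0.161% higher and 0.0107% lower), which edgeR did not call. DESeq2 called it (adjusted p = 0.0270) among 1301 genes in all, where edgeR called 32. Without P140 LAG-3-/- replicate 1 edgeR called it as well (-1.65, adjusted p = 0.0238), among 1713 genes. At P140 *Clec4a3* was lower in LAG-3-/- by -0.89 ± 0.28 (adjusted p = 0.0924), a call that was lost without LAG-3+/+ replicate 2 or 3 or LAG-3-/- replicate 2 or 3, as well as without TMM scaling, without the filter, with the replicate block, with only the 2 groups and without the P140 libraries with the most neutrophil RNA (adjusted p up to 0.294). Without LAG-3-/- replicate 1 it was -1.24 (adjusted p = 0.0098).

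*Clec12a* read 9.95, 7.96 and 1.92 CPM in LAG-3+/+ and 1.88, 4.19 and 2.08 CPM in LAG-3-/- at P120, and 24.4, 48.3 and 7.38 CPM in LAG-3+/+ and 14.05, 5.77 and 12.6 CPM in LAG-3-/- at P140. The P120 and P140 LAG-3+/+ libraries overlapped. The log2 fold change was 2.01 ± 0.76 in LAG-3+/+ (adjusted p = 0.0870) and 1.99 ± 0.76 in LAG-3-/- (adjusted p = 0.511), and the first was lost in 5 of 6 fits with a replicate left out, all but the one without P140 LAG-3+/+ replicate 3, and without TMM scaling, with the replicate block, with only the 2 groups and without the P140 libraries with the most neutrophil RNA (adjusted p up to 0.307). The library with 48.3 CPM held 683 CPM of neutrophil RNA, and those with 24.4 and 7.38 CPM held 3493 and 3.92 CPM.

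*Clec4d*, *Clec4e*, *Clec4n* and *Clec4a1* were near the limit of detection in the microglia that were not divided by LAG-3. *Clec4d* had 3, 0 and 0 counts in P140 LAG-3+/+ libraries and 87, 72 and 99 counts in P140 LAG-3-/- libraries. This difference was not called by edgeR (adjusted p = 0.197) and was called by DESeq2, which called 4281 genes in all where edgeR called 1908. At P120 *Clec4d* had 88, 22 and 0 counts in LAG-3+/+ and 0, 63 and 0 in LAG-3-/-. *Clec4e* was at 0 in 2 of 3 libraries of P120 LAG-3+/+, P120 LAG-3-/- and P140 LAG-3-/- microglia, at 2.81 to 4.53 CPM in P140 LAG-3+/+, and at most 12.6 CPM, in P140 LAG-3-/- replicate 3, which had 4691 CPM of neutrophil RNA. *Clec4n* was at most 5.06 CPM and *Clec4a1* at most 1.61 CPM in any stage library. *Clec4a2* ranged from 10.2 to 45.2 CPM over the 12 libraries, and *Card9* from 13.8 to 35.4 CPM, with no call for either. In P140 LAG-3+/+ replicate 3, with 3.92 CPM of neutrophil RNA, *Clec4a2* was still at 31.5 CPM.

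The partners of these receptors moved in both directions with stage. Of 24 signalling partners tested, 4 were higher and 11 lower at P140 in LAG-3+/+ microglia, beside 11.9% and 15.5% of all genes. None was called in LAG-3-/-, where 5 had an unadjusted p below 0.05 (edgeR), as had 1658 of all 18669 genes. *Fcer1g*, the gamma chain, was higher (1.27 ± 0.28, adjusted p = 0.0121), as was *Tyrobp* (1.22 ± 0.33, adjusted p = 0.0266), which encodes DAP12. *Plcg2*, the phospholipase downstream of Syk, was lower (-2.12 ± 0.28, adjusted p = 0.0050), as were *Inpp5d*, the phosphatase SHIP1 (-2.07 ± 0.36), *Syk* (-1.98 ± 0.55, adjusted p = 0.0301) and *Malt1* (-1.95 ± 0.56, adjusted p = 0.0340). *Tyrobp*, *Syk* and *Malt1* were chosen for mention after their values were seen. At P140, 3 partners were higher in LAG-3-/- than in LAG-3+/+, namely *Plcg2* (127 against 35.4 CPM, 1.84 ± 0.27), *Inpp5d* (1.51 ± 0.36) and *Nfatc2* (1.85 ± 0.54), and none lower. The LAG-3-/- libraries were uneven. *Inpp5d* was at 163.6 CPM in replicate 1 and at 507 and 513 CPM in the others, against 118 to 149 CPM in LAG-3+/+. *Nfatc2* was at 10.9 CPM in replicate 1 and at 39.0 and 39.3 CPM in the others, against 4.27 to 12.1 CPM, with overlap. Replicate 1 is the LAG-3-/- library with 20260 genes detected and a TMM factor of 0.848, near those of the P140 LAG-3+/+ libraries. The part of this in the partner differences was not tested. Of 15 CARD9 pathway outputs tested, 5 were higher and 3 lower at P140 in LAG-3+/+ microglia, beside 11.9% and 15.5% of all genes. *Tnf* (2.33 ± 0.61), *Ccl4* (1.29 ± 0.35) and *Ccl3* (1.43 ± 0.39) were among the higher. No output was called between genotypes at P140, where 7 had an unadjusted p below 0.05 (edgeR), as had 4495 of all 18669 genes. Of 14 other C-type lectins tested, *Cd72* (2.03 ± 0.42) and *Cd69* (3.87 ± 1.31) were higher at P140 in LAG-3+/+ and 2 were lower, among them *Mrc2* (-2.24 ± 0.66), beside the same shares of all genes from P120 to P140.

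**Figure D4:**
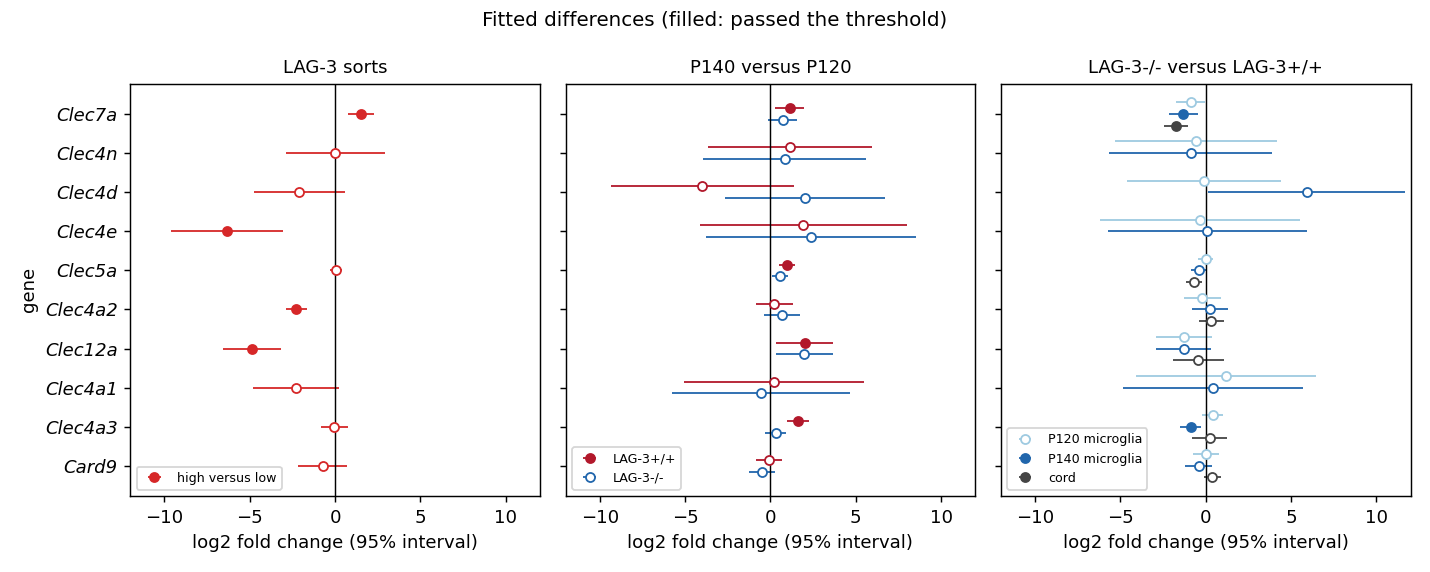
Log2 fold changes with 95% intervals for the 10 genes, in LAG-3-high against LAG-3-low cells (left), P140 against P120 by genotype (middle) and LAG-3-/- against LAG-3+/+ in P120 microglia, P140 microglia and cord (right). Filled points passed the threshold of their comparison. *Clec7a* lies above 0 in the left and middle panels and below 0 in the right one, and the intervals of *Clec4n*, *Clec4d*, *Clec4e* and *Clec4a1* are the widest in the stage panels.

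In whole lumbar cord the question was whether loss of LAG-3 alters these receptors at P140. *Clec7a* was lower in LAG-3-/- cord, and it was the only member of 6 tested that was called, beside 7.52% of 17702 genes (4.37% higher and 3.15% lower). It read 112.5, 69.6 and 104.8 CPM in LAG-3+/+ and 40.2, 20.2 and 26.5 CPM in LAG-3-/- cord, without overlap. The log2 fold change was -1.73 ± 0.29 (adjusted p = 0.0045), and it stayed called without each replicate in turn (-2.04 to -1.52). In whole tissue, fewer cells of a type and less RNA per cell cannot be told apart. The summed microglia markers were 1202 to 1511 CPM in LAG-3+/+ and 887 to 1233 CPM in LAG-3-/- cord, and monocyte markers 176 to 228 and 102 to 117 CPM. Markers of other cell types also separated the genotypes. Oligodendrocyte markers summed to 15246 to 16737 CPM in LAG-3+/+ and 21833 to 30948 CPM in LAG-3-/- cord, and astrocyte markers to 12245 to 14081 and 7062 to 11531 CPM. Endothelial markers (140.6 to 148 and 121 to 134 CPM) did not overlap either, and the part of these shifts in the lower *Clec7a* was not tested. Per 1000 CPM of microglia markers, *Clec7a* was at 75.1, 57.9 and 69.4 in LAG-3+/+ and at 32.6, 22.8 and 25.2 in LAG-3-/- cord, a ratio of means of 0.398 with no overlap. Of the 9 markers tested, 5 had an unadjusted p below 0.05 between genotypes (edgeR), as had 8441 of all 17702 genes. The ratio therefore cannot tell cell number from RNA per cell.

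*Clec5a* read 9.58, 8.09 and 11.4 CPM in LAG-3+/+ and 7.72, 5.72 and 4.45 CPM in LAG-3-/- cord. Its difference of -0.71 ± 0.21 had an adjusted p of 0.0228 and was under the minimum fold, and per 1000 CPM of microglia markers it was 6.89 ± 0.60 (SD, n = 3) and 5.65 ± 1.23 (SD, n = 3), with overlap. *Card9* read 3.59, 2.49 and 3.24 CPM in LAG-3+/+ and 4.69, 4.10 and 3.40 CPM in LAG-3-/- cord (0.38, 95% interval -0.10 to 0.86). *Clec4a2*, *Clec4a3* and *Clec12a* were between 0.05 and 1.66 CPM and were not called. *Clec4a1*, *Clec4n*, *Clec4d* and *Clec4e* had at most 15 counts in any cord library and were not tested. *Clec4e* had 3, 2 and 4 counts in LAG-3+/+ and none in LAG-3-/- libraries, a difference that cannot be sized at this depth. Neutrophil markers summed to 8.6 to 12.02 CPM in LAG-3+/+ and 9.91 to 29.2 CPM in LAG-3-/- cord without *Csf3r*.

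**Figure D5:**
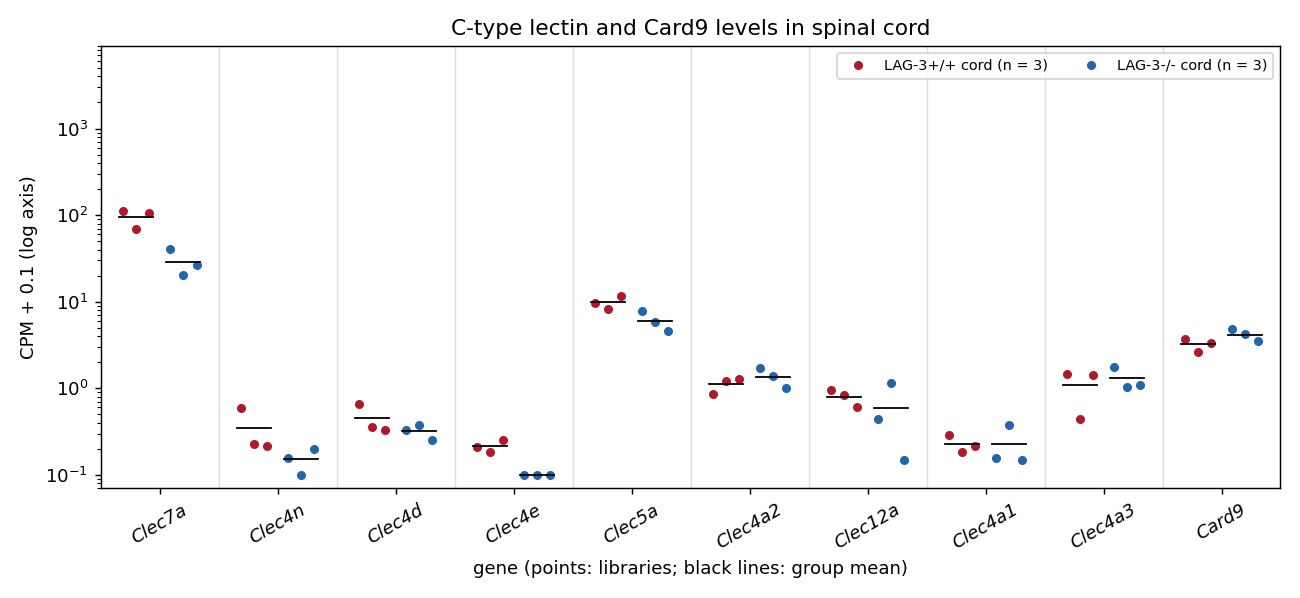
CPM plus 0.1 on a log axis for the 10 genes in LAG-3+/+ (red) and LAG-3-/- (blue) lumbar cord at P140, n = 3 per group, with group means as black lines. *Clec7a* is the one gene above 12 CPM, at 69.6 to 112.5 CPM in LAG-3+/+ and 20.2 to 40.2 CPM in LAG-3-/- cord.

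Of 25 signalling partners tested in cord none was called, while 8 had an unadjusted p below 0.05 (edgeR), as had 8441 of all 17702 genes. Of 14 CARD9 pathway outputs tested, *Nlrp3*, an inflammasome sensor, was lower (3.65 against 1.77 CPM, -1.04 ± 0.22, adjusted p = 0.0033). Of 13 other C-type lectins tested, *Colec12* (-1.13 ± 0.21, adjusted p = 0.0021) and *Olr1*, the receptor of oxidised low-density lipoprotein (-1.01 ± 0.33, adjusted p = 0.0316), were lower and none was higher. Of all genes in cord, 3.15% were lower and 4.37% higher.

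Set side by side without a test, since the tables were normalized separately, *Clec7a* averaged 1508 CPM in LAG-3-high cells, 1495 CPM in P140 LAG-3+/+ microglia and 603 CPM in P140 LAG-3-/- microglia, beside 530 CPM in LAG-3-low cells. *Clec5a* averaged 229 CPM in LAG-3-high cells and 412 CPM in P140 LAG-3+/+ microglia. *Clec12a* averaged 101.8 CPM in LAG-3-low cells, 26.7 CPM in P140 LAG-3+/+ and 10.8 CPM in P140 LAG-3-/- microglia.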

How the data were processed

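RNA was sequenced from 26 microglia and 6 lumbar cord libraries. The authors trimmed reads with Trim Galore 0.6.7, quantified them with Salmon 1.9.0 against GRCm39, imported them with tximport in R 4.2.1 and deposited estimated counts per Ensembl gene, neither whole nor normalized; the annotation release is not given in the sources used here. Microglia libraries were made with a SMART-seq kit without strand. For cord the methods name a strand-specific kit and the labels give the SMART-seq protocol. Estimates per gene from full-length kits depend on transcript length and on how Salmon divides reads between similar transcripts, so levels of different genes were ranked only per kilobase.

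The counts were rounded and each table was fitted by itself in edgeR 4.0.16 (R 4.3.3), after filterByExpr at a count of 10 and a total of 15, with TMM scaling and a robust quasi-likelihood F-test. The 16508 sorted, 18669 stage and 17702 cord genes tested were adjusted together within each table; 10, 10 and 6 members were among them. The stage groups were called at an adjusted p below 0.1 with no minimum fold, a threshold the methods do not state for that model. Of the identifiers, 71, 66 and 71 were absent from GENCODE vM39. Promoters are from RefSeq (GRCm38.p6); *Clec4n* had no entry. The floor was 3 counts per library. Log2 CPM used a prior count of 2. Counting error and replicate spread both enter the fits. Each fit was tested on simulated data.

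The 10 members, the pathway and marker lists and the tests were chosen with earlier results of these data known, so no count over a list is independent evidence. The members were named throughout; from the other lists, the called genes with the 3 smallest adjusted p per comparison, of which 1 gene is not reported here. The labels do not say whether the replicate numbers pair the high and low fractions, and the main fits did not pair them. Alternatives were DESeq2 1.42.0, RLE size factors, no TMM, no filter, a mean of at least 10 counts, the replicate block, a transcript length and GC correction, an adjusted p of 0.05, only the 2 groups compared, each replicate left out and, added after the data were seen, fits without the libraries with the most neutrophil RNA.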

Additional observations from a re-analysis of the deposited data

Results flagged for a closer look

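In 3 of 29 gene and group pairs of 4 or 5 libraries, 1 library lay further from the rest than Dixon's 95% limit allows, which chance gives in about 1 of 20. *Clec4a1* was at 2.20 CPM in WT replicate 3, where the next library had 0.357 CPM. *Clec4a2* was at 173.8 CPM in WT replicate 4, where the next had 100.1 CPM; this library also had the most neutrophil RNA of the 14 sorted libraries (70511 CPM without *Csf3r*) and no count of *Clec4e*. *Clec4e* was at 209.7 CPM in LAG-3-low replicate 4, where the next had 44.7 CPM and where neutrophil RNA (49956 CPM) was within the range of the other LAG-3-low libraries (23039 to 67228 CPM). The lower level of *Clec4e* in LAG-3-high cells was -5.27 without that library and was no longer called (adjusted p = 0.128).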

How the results depend on the processing

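Between genotypes at P140 the number of members called was 2. It was 3 by DESeq2, 1 without TMM factors, without the filter, with the replicate block and with the length and GC correction, and 0 with only the 2 groups, at an adjusted p of 0.05 or without the P140 libraries with the most neutrophil RNA. From P120 to P140 in LAG-3+/+ it was 2 in place of 4 without TMM factors and at 0.05. Between the high and low fractions it fell from 4 to 2 under the replicate block. Against WT, LAG-3-low had 5 in place of 2 by DESeq2 (*Clec4a1*, *Clec4e* and *Card9* added), 4 with the length and GC correction (*Clec4a2* and *Clec4a3* added, lower) and 4 without WT replicates 2 and 4. DESeq2 called 1 member in the interaction in place of 0, and without the filter cord had 2 in place of 1. The causes were not tested. Leaving out each replicate gave 3 to 4 members between the fractions, 2 to 3 in the low and 4 to 5 in the high fraction against WT, 2 to 3 from P120 to P140 in LAG-3+/+, 0 in LAG-3-/- and between genotypes at P120, 0 to 3 between genotypes at P140, 0 to 2 in the interaction (2 without P140 LAG-3-/- replicate 1) and 1 to 2 in cord (2 without LAG-3-/- replicate 2).

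The difference of *Clec7a* between its 2 stage changes ran from -0.72 to 0.25 with a replicate left out, turning positive without P120 LAG-3-/- replicate 2. *Clec5a*, at 0.04 between the fractions, was -0.0170 by DESeq2, -0.0169 with RLE, -0.33 without TMM and -0.0311 with only the 2 groups; against WT in LAG-3-high, at 0.21, it was -0.10 without TMM and -0.46 with the length and GC correction. Of 306 single-gene values under an alternative other than a left-out replicate, 272 kept their direction and call, 25 lost and 3 gained a call, and 6 turned. Whether the replicate numbers pair the high and low fractions was not settled. Pairs with the same number correlated, each taken relative to its group, with r between -0.119 and 0.067. A library correlated best with its own number in 10 of 26 sorted, 13 of 36 stage and 0 of 6 cord matches with another group. Between the high and low fractions, same-number pairs had r of 0.0195, 0.0666, -0.0013, 0.0674 and 0.0094. Different-number pairs of these fractions ran from -0.0408 to 0.0352. The block lowered the calls over all genes between the fractions from 576 to 391, with *Clec7a* at an adjusted p of 0.101 and *Clec4e* at 0.155 (edgeR). The block also ended the calls of *Clec4e* in LAG-3-high against WT (0.207), of *Clec12a* from P120 to P140 in LAG-3+/+ (0.1002) and of *Clec4a3* between genotypes at P140 (0.140). Depth limits *Clec4n*, *Clec4d*, *Clec4e* and *Clec4a1* in stage and cord libraries, where several had 0 counts.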
